A study of Homo sapiens with 27 samples.

Results

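The BCL2 family genes described here encode 5 survival proteins, BCL2, BCL2L1, BCL2L2, MCL1 and BCL2A1, and 3 pore-forming proteins, BAX, BAK1 and BOK. They were taken from the array by gene symbol alone: 30 of 49395 probe sets carry 1 of these symbols and no other, and the 8 genes are 8 of the 18132 genes named that way. Each gene is given by the probe set with the brightest mean over all arrays, and its other probe sets are described apart. Probe sets were tested if at or above the array median on 3 or more of the 27 arrays. That kept 22 of the 30 probe sets and at least 1 for each of the 8 genes, among 12386 genes tested.

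Gene expression was measured in 3 human cancer cell lines. EBC-1 came from a non-small cell lung cancer, MKN-45 from a gastric cancer, and both are addicted to MET, also called c-Met, a receptor tyrosine kinase. HCC827, another non-small cell lung cancer line, has activated c-Met but does not depend on it, and served as the negative control line. Cells of each line were given SGX-523, a selective inhibitor of the c-Met kinase, at 1 uM for 24 h or for 48 h, or the solvent DMSO, with 3 biological replicates in each of the 9 groups. No time is given for the DMSO cultures, and the 24 h and 48 h groups of a line share the same 3 DMSO arrays. No genotype, transgene or second agent is given for any group beyond the line itself.

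The survival proteins hold the outer mitochondrial membrane intact by binding the BH3-only proteins and the pore formers. When BH3-only proteins such as BIM (BCL2L11) or PUMA (BBC3) saturate them, BAX and BAK1 form pores, cytochrome c leaves the mitochondria and caspases are activated. In cells that depend on a receptor kinase, loss of its signal is known to raise BIM and to act on the stability of the MCL1 protein, which transcript arrays do not measure.

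The values are log2 signals in arbitrary units, so 1 unit is a doubling of signal. Array medians were 5.71 to 5.73 on the 9 HCC827 arrays and 5.02 to 5.14 on the other 18, so levels in HCC827 are given beside those of the other lines without a test. The array of HCC827 at 24 h of SGX-523, replicate 3, stood apart: its lowest correlation with an array of its own group was 0.9450, against at least 0.9946 within every other group. It widens the spread that all comparisons share, so calls by a gene's brightest probe set that change without it are given both ways. Epithelial markers lay above the array median on all 9 arrays of a line for 5 of 5 genes in MKN-45 and HCC827 and for 4 of 5 in EBC-1, where CDH1 lay below it, and the leukocyte gene PTPRC lay below it on all arrays. Another leukocyte gene, CD14, lay above it on all 9 EBC-1 arrays. Of 5 fibroblast markers 4 lay below it on all arrays in every line, and PDGFRB did not. Of 3 endothelial markers, 2 lay below it on all arrays in EBC-1 and in MKN-45 and 1 in HCC827. The log2 difference between 3 prime and 5 prime ACTB probe sets, a measure of RNA quality, moved with treatment: its means after 24 h and 48 h of SGX-523 were 3.76 and 3.89 in EBC-1, against 3.36 in DMSO. It was 3.68 and 4.16 in MKN-45, against 3.53 in DMSO, and 2.65 and 2.33 in HCC827, against 2.08 in DMSO, with 3.40 on the array that stood apart. External control transcripts (45 probe sets) gave a median change of 0.374 and 0.421 in EBC-1 and of 0.349 and 0.250 in MKN-45, at 24 h and 48 h. In HCC827 that median was 0.045 at 24 h and -0.029 at 48 h. The part of RNA quality or of these controls in the results below was not tested.

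Promoter sequence was available in the RefSeq table for GRCh38.p14 for 6 of the 8 genes, in 7 windows. The 250 bases upstream of the start site are shown for BAX and BAK1, the pore formers whose transcripts moved in opposite directions in EBC-1, and for BCL2A1, whose probe set was bright in HCC827 alone. Each is printed 5′ to 3′ on the strand of its gene, and capitals mark E-box matches (CACGTG, which reads the same on both strands).
BAX, chr19:48954625-48954874, + strand: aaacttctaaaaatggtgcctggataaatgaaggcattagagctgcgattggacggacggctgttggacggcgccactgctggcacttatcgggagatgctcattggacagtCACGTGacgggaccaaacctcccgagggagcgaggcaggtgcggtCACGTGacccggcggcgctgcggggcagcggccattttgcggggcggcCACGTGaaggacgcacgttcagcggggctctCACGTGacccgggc
BAK1, chr6:33580277-33580526, - strand: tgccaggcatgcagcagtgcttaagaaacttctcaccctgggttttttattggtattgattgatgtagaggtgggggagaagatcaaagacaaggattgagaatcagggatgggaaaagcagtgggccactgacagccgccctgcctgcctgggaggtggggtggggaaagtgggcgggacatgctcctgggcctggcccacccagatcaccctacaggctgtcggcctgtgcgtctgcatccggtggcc
BCL2A1, chr15:79971197-79971446, - strand: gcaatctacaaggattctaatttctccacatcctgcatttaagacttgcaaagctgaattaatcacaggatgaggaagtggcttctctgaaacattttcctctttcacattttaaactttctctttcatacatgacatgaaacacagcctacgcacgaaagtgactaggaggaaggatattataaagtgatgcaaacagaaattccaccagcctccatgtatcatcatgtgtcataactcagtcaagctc

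The BAX window held 4 E-box matches, the first at -138 to -133 and the last at -14 to -9 from the start site. At least 1 E-box is present in 6.34% of all 35116 windows of this length, and at least 4 in 5 of them (0.0142%). The other 5 motifs searched on both strands were AP-1 (TGANTCA, in 6.57% of windows), CRE (TGACGTCA, 1.65%), FOXO (TGTTTAC, 2.98%), NF-kB (0.527%) and ETS (CCGGAAG, 8.52%). None of the 7 windows matched any of these 5, and the BAK1 and BCL2A1 windows matched no motif searched. The GC content was 62.8% for BAX, 58.0% for BAK1 and 38.8% for BCL2A1, against a median of 58.0% over all windows. A match is a run of letters and not a measured binding site.

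BAX rose in both MET-dependent lines at both times and in HCC827 at 48 h. BAX is held inactive in the cytosol and moves to the mitochondrial membrane to form pores. In EBC-1 its level was 7.89, 7.89 and 7.91 at 24 h and 8.01, 8.09 and 8.06 at 48 h of SGX-523, against 7.41, 7.53 and 7.53 in DMSO. In MKN-45 it was 8.77, 8.87 and 8.95 at 24 h and 9.17, 9.15 and 9.10 at 48 h, against 8.48, 8.46 and 8.46 in DMSO. All treated arrays of these lines lay above all their DMSO arrays. HCC827 had 8.64, 8.66 and 8.84 at 24 h and 8.94, 8.98 and 8.82 at 48 h, against 8.67, 8.64 and 8.40 in DMSO, so its 24 h arrays overlapped DMSO and its 48 h arrays did not.

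**Figure D1:**
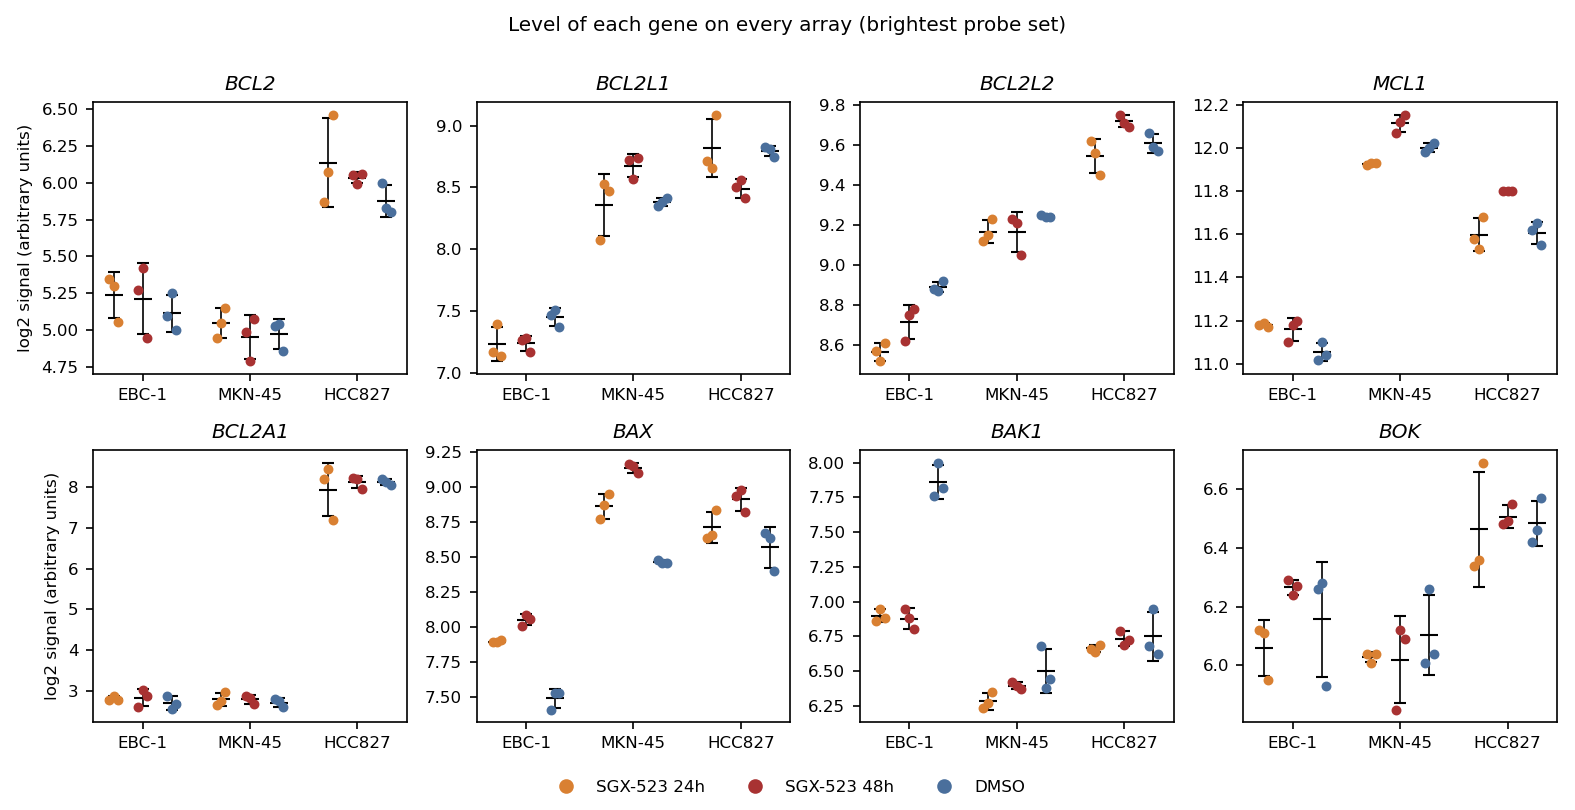
Level of each gene on every array, by its brightest probe set, as log2 signal. Points are arrays, bars are mean and SD of 3, and each line shows SGX-523 at 24 h, SGX-523 at 48 h and DMSO from left to right. BAX lies above DMSO in all 4 treated groups of EBC-1 and MKN-45, BAK1 falls in EBC-1, and BCL2A1 stays near 2.7 to 2.8 in EBC-1 and MKN-45.

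The log2 fold changes of BAX were 0.41 and 0.56 in EBC-1 at 24 h and 48 h, with adjusted p = 2.59e-05 and 2.32e-07. They were 0.40 and 0.68 in MKN-45, with adjusted p = 3.42e-05 and 1.05e-08. In HCC827 they were 0.15 (adjusted p = 0.247) and 0.34 (adjusted p = 0.00108, but 0.0651 with a separate fit per line), and the SE was 0.0722 throughout. On the linear scale the largest of these, in MKN-45 at 48 h, was 1.6-fold. Tests used limma over all 12386 genes with Benjamini-Hochberg adjustment and a threshold of 0.05, and "called" means past that threshold. These are cultures measured in bulk, so a change in every cell and a change in the share of cells that express a gene cannot be told apart.

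BAX has a second probe set that did not show this rise. Probe set 11759444_x_at had 6.32, 6.28 and 6.40 at 24 h and 6.70, 6.57 and 6.56 at 48 h of SGX-523 in EBC-1, against 6.36, 6.56 and 6.46 in DMSO. Its changes ran from -0.13 to 0.18 over the 6 comparisons with DMSO and none was called. Its change minus that of the brightest probe set was -0.53 and -0.41 in EBC-1 (adjusted p = 1.54e-05 and 0.000291) and -0.26 and -0.50 in MKN-45 (adjusted p = 0.0197 and 3.69e-05). In HCC827 this difference was -0.03 and -0.20, with adjusted p = 0.822 and 0.254. With the mean of both probe sets as the level of BAX, EBC-1 at 24 h dropped to 0.14 and was not called (adjusted p = 0.104).

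BAK1 fell in EBC-1 at both times, to 0.514 and 0.506 of its DMSO signal. BAK1 resides on the outer mitochondrial membrane, where it forms the same kind of pore as BAX. EBC-1 cells had 6.86, 6.95 and 6.88 at 24 h and 6.95, 6.88 and 6.80 at 48 h of SGX-523, against 7.76, 8.0 and 7.82 in DMSO. Every treated array lay below every DMSO array. The log2 fold changes were -0.96 (SE 0.0884, adjusted p = 8.14e-10) and -0.98 (adjusted p = 5.08e-10).

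In MKN-45, BAK1 was 6.23, 6.27 and 6.35 at 24 h and 6.42, 6.39 and 6.37 at 48 h, against 6.68, 6.38 and 6.44 in DMSO. The 24 h change of -0.22 was called at adjusted p = 0.0353, while the 48 h change of -0.11 was not (adjusted p = 0.307). The 24 h call rests on a narrow margin: it was lost without DMSO replicate 1 (-0.13, adjusted p = 0.247), without SGX-523 24 h replicate 1 (adjusted p = 0.108) and without its replicate 2 (adjusted p = 0.0774). It was kept in 10 of 17 alternatives, with adjusted p from 0.0105 to 0.247. HCC827 had 6.66, 6.64 and 6.69 at 24 h and 6.79, 6.69 and 6.72 at 48 h, against 6.68, 6.95 and 6.62 in DMSO, which overlap.

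Of the 4 BAK1 probe sets kept, 3 fell in EBC-1 by closely similar amounts. Probe set 11732515_x_at changed by -0.92 and -1.01 and 11746208_a_at by -1.06 and -1.09 at 24 h and 48 h. The last reached the array median on only 5 arrays. Probe set 11748849_a_at changed by -0.24 and -0.19, was called at neither time (without the array that stood apart, at 24 h with adjusted p = 0.0475), and differed from the brightest probe set by 0.73 and 0.79 (adjusted p = 0.000103 and 3.34e-05). In MKN-45 at 48 h it fell by 0.28 (adjusted p = 0.034), while 11746208_a_at changed by -0.31 (adjusted p = 0.0638, and 0.0159 without the array that stood apart).

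BOK, a BAX relative that is controlled mainly by protein turnover, was called in no comparison by its brightest probe set. That probe set lay between 5.85 and 6.29 on all EBC-1 and MKN-45 arrays and between 6.34 and 6.69 on the HCC827 arrays. A different BOK probe set, 11718630_s_at, fell in both MET-dependent lines. In EBC-1 it had 5.63, 5.07 and 5.39 at 24 h and 5.6, 5.59 and 5.67 at 48 h of SGX-523, against 6.16, 6.02 and 6.06 in DMSO. In MKN-45 it had 5.33, 5.52 and 5.53 at 24 h and 5.29, 5.52 and 5.58 at 48 h, against 6.13, 5.93 and 5.83 in DMSO. No treated array reached the level of a DMSO array in either line.

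These BOK changes were -0.71 and -0.46 in EBC-1 (adjusted p = 0.000156 and 0.00827) and -0.51 and -0.50 in MKN-45 (adjusted p = 0.0044 and 0.00433). Their difference from the brightest probe set was called in all 4 comparisons, with adjusted p from 0.00134 to 0.0262. In HCC827 the same probe set had 5.99, 5.84 and 6.54 at 24 h, the last on the array that stood apart. It changed there by 0.26 and 0.04, or by 0.05 at 24 h without that array, and was not called. Its response differed from HCC827 by -0.97 in EBC-1 at 24 h (adjusted p = 0.000348) and by -0.76 and -0.54 in MKN-45 at 24 h and 48 h (adjusted p = 0.00336 and 0.0326), while -0.50 in EBC-1 at 48 h missed the threshold (adjusted p = 0.0502). Without that array the differences at 24 h were -0.76 in EBC-1 and -0.55 in MKN-45 (adjusted p = 0.000301 and 0.00666), and that of EBC-1 at 48 h was called (adjusted p = 0.00869).

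**Figure D2:**
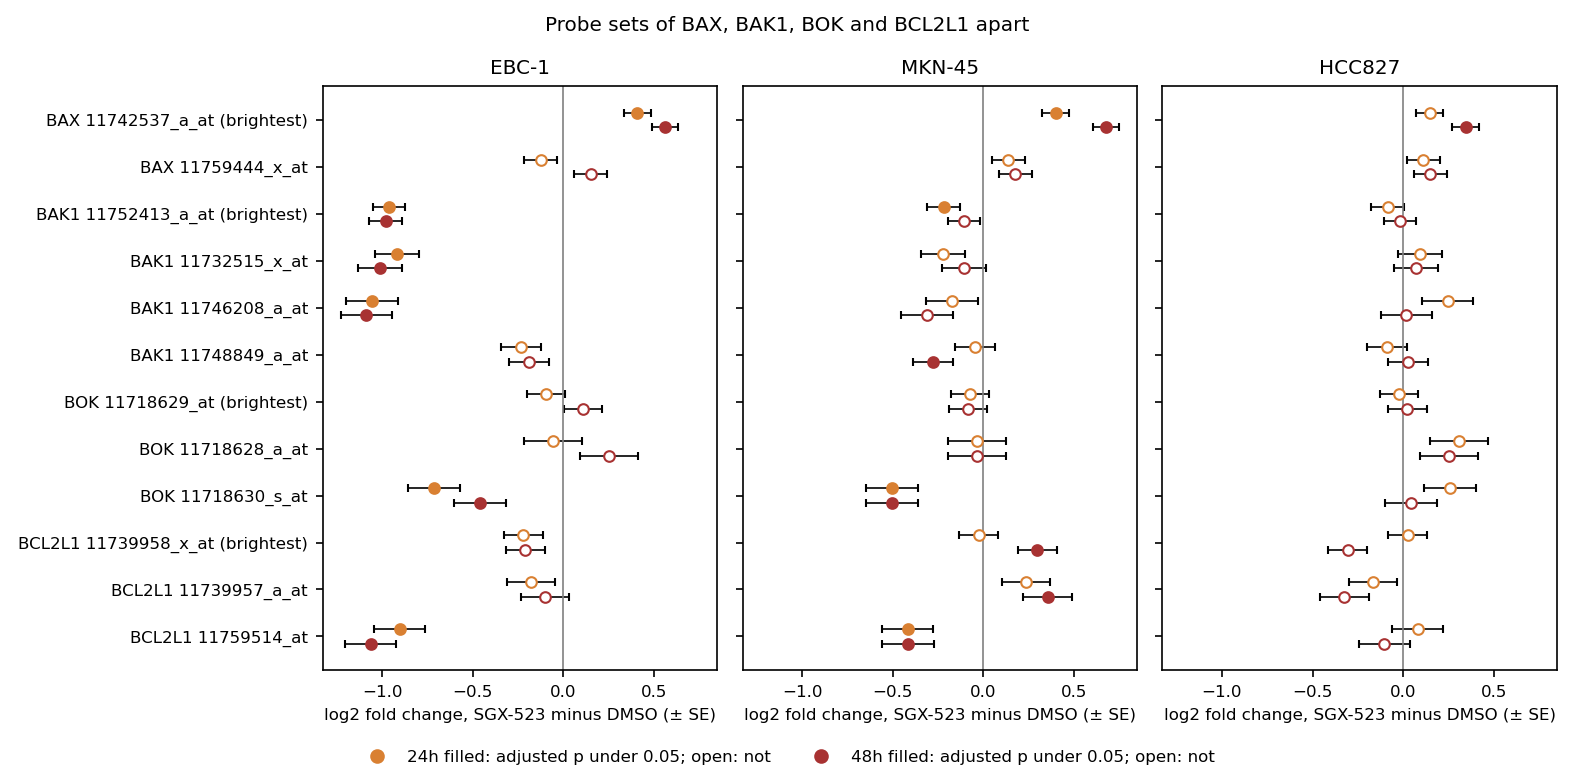
Log2 fold change of every kept probe set of BAX, BAK1, BOK and BCL2L1, SGX-523 minus DMSO, with SE bars, in panels by line. Filled points passed adjusted p under 0.05 and open points did not; 24 h is drawn above 48 h. Within a gene, probe sets disagree: 1 of 2 for BAX rises, 3 of 4 for BAK1 fall in EBC-1, and 1 of 3 each for BOK and BCL2L1 falls in EBC-1 and MKN-45.

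BCL2L1, the gene of the survival protein BCL-XL, moved in opposite directions in MKN-45 and HCC827 at 48 h. In MKN-45 its level was 8.07, 8.53 and 8.47 at 24 h and 8.72, 8.57 and 8.74 at 48 h of SGX-523, against 8.35, 8.38 and 8.41 in DMSO. In HCC827 it was 8.71, 8.66 and 9.09 at 24 h and 8.50, 8.56 and 8.41 at 48 h, against 8.83, 8.81 and 8.75 in DMSO. The 48 h arrays lay above all DMSO arrays in MKN-45 and below all of them in HCC827.

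The 48 h changes of BCL2L1 were 0.30 in MKN-45 (SE 0.106, adjusted p = 0.0169) and -0.31 in HCC827 (adjusted p = 0.0393). The MKN-45 call was lost without SGX-523 48 h replicate 1 (adjusted p = 0.0523) or its replicate 3 (adjusted p = 0.0603) and after quantile normalization (adjusted p = 0.0766). The HCC827 call was lost after quantile normalization (adjusted p = 0.109), with no filter (adjusted p = 0.0536) and with a separate fit per line (adjusted p = 0.143). It was also lost when any 1 of its own 6 arrays was left out (adjusted p from 0.054 to 0.14) and stood without the array that stood apart (adjusted p = 0.00337). EBC-1 had 7.17, 7.39 and 7.13 at 24 h and 7.26, 7.28 and 7.17 at 48 h, against 7.47, 7.51 and 7.37 in DMSO. Its changes of -0.22 and -0.21 missed the threshold (adjusted p = 0.0763 and 0.0872) and passed it without the HCC827 array that stood apart (adjusted p = 0.0175 and 0.0222).

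Probe set 11759514_at of BCL2L1 fell in both MET-dependent lines. It had 4.86, 4.97 and 4.87 at 24 h and 4.87, 4.98 and 4.37 at 48 h of SGX-523 in EBC-1, against 5.70, 5.84 and 5.87 in DMSO. The changes were -0.90 and -1.06 in EBC-1 (adjusted p = 7.26e-06 and 6.4e-07) and -0.42 at both times in MKN-45 (adjusted p = 0.0153 for each). In MKN-45 at 48 h this probe set and the brightest one were thus called in opposite directions, and their difference was -0.71 (adjusted p = 0.000394). Probe set 11739957_a_at was not called apart from the brightest in any comparison with DMSO. Its differences ran from -0.19 to 0.26 (adjusted p of at least 0.375). With the mean of all 3 probe sets as the level of the gene, MKN-45 at 48 h dropped to 0.08 (adjusted p = 0.452) and EBC-1 was called, at -0.43 and -0.46 (adjusted p = 0.000122 and 6e-05).

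BCL2L2, which encodes the survival protein BCL-W, fell in EBC-1 by its only kept probe set. EBC-1 cells had 8.57, 8.52 and 8.61 at 24 h and 8.62, 8.75 and 8.78 at 48 h of SGX-523, against 8.88, 8.87 and 8.92 in DMSO. The groups did not overlap, and the changes were -0.33 (SE 0.0593, adjusted p = 3.7e-05) and -0.17 (adjusted p = 0.0141). The 48 h call was lost without SGX-523 48 h replicate 1 (-0.12, adjusted p = 0.103) and after quantile normalization (-0.12, adjusted p = 0.0808). Changes in MKN-45 were -0.07 and -0.08 and in HCC827 -0.06 and 0.11, none of them called. The BCL2L2 probe sets under the filter did not fall in EBC-1. There 11751290_a_at changed by 0.15 and 0.02 and 11717172_a_at by 0.06 and 0.10 (limma without a filter, adjusted p of at least 0.499).

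MCL1, a short-lived survival protein whose transcript also turns over fast, has 6 kept probe sets, and they did not all move together. By the brightest, 11715483_s_at, MCL1 was 11.18, 11.19 and 11.17 at 24 h and 11.10, 11.18 and 11.20 at 48 h of SGX-523 in EBC-1, against 11.02, 11.10 and 11.04 in DMSO. In MKN-45 it was 11.92, 11.93 and 11.93 at 24 h and 12.07, 12.12 and 12.15 at 48 h, against 11.98, 12 and 12.02 in DMSO. HCC827 had 11.58, 11.53 and 11.68 at 24 h and 11.80 on each array at 48 h, against 11.62, 11.65 and 11.55 in DMSO. In EBC-1 the lowest 48 h array and the highest DMSO array were both at 11.10, and the 48 h arrays of MKN-45 and HCC827 lay above all their DMSO arrays.

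By that probe set MCL1 rose by 0.13 and 0.10 in EBC-1 (SE 0.038, adjusted p = 0.00625 and 0.0203), by 0.11 in MKN-45 at 48 h (adjusted p = 0.0127) and by 0.20 in HCC827 at 48 h (adjusted p = 0.000503). It changed by -0.08 in MKN-45 at 24 h (adjusted p = 0.0929, and 0.0341 without the array that stood apart) and by -0.01 in HCC827 at 24 h (adjusted p = 0.874). Centred on the median of each array, EBC-1 at 48 h (0.06, adjusted p = 0.193) and MKN-45 at 48 h (0.08, adjusted p = 0.0911) were no longer called, and MKN-45 at 24 h was, as a fall (-0.13, adjusted p = 0.00499). The 48 h calls were also lost with no intensity trend (adjusted p = 0.0694 in EBC-1 and 0.0506 in MKN-45), and in MKN-45 without SGX-523 48 h replicate 3 (adjusted p = 0.0597). In EBC-1 the 48 h call was lost without DMSO replicate 1 or 3 or SGX-523 48 h replicate 2 or 3 (adjusted p from 0.0558 to 0.0955). With the mean of all 6 probe sets the sign turned to -0.09 and -0.08 in EBC-1, -0.11 in MKN-45 at 48 h and -0.02 in HCC827 at 48 h, with adjusted p of at least 0.258.

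Probe set 11715487_a_at of MCL1 fell in EBC-1. It had 6.88, 6.85 and 7.08 at 24 h and 6.62, 6.80 and 6.88 at 48 h of SGX-523 in EBC-1, against 7.72, 7.64 and 8.01 in DMSO. In MKN-45 it had 9.48, 9.27 and 9.11 at 24 h and 9.09, 9.10 and 9.44 at 48 h, against 9.59, 9.38 and 9.69 in DMSO. In HCC827 it had 9.65, 9.61 and 8.07 at 24 h and 9.04, 9.15 and 9.21 at 48 h, against 9.64, 9.54 and 9.63 in DMSO. The treated arrays lay below all DMSO arrays in EBC-1 at both times and in HCC827 at 48 h, and overlapped DMSO in MKN-45 at both times. The value of 8.07 is that of the array that stood apart.

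The change of this probe set was -0.85 and -1.02 in EBC-1 (adjusted p = 0.00488 and 0.000956), and -0.47 in HCC827 at 48 h (adjusted p = 0.222). Without the array that stood apart its SE fell to 0.0984, against 0.246 with it. It was then also called in MKN-45 at both times (-0.27 and -0.34, adjusted p = 0.0183 and 0.00264) and in HCC827 at 48 h (adjusted p = 0.000378). Probe set 11715484_a_at was called in none of the 6 comparisons with all arrays. Without that array it was called in EBC-1 (-0.50 and -0.38), in MKN-45 at 48 h (-0.35) and in HCC827 at 48 h (-0.36), with adjusted p of at most 0.00142. Probe set 11715485_a_at rose by 0.38 and 0.51 in EBC-1 (adjusted p = 0.00126 and 4.88e-05) and by 0.27 in MKN-45 at 24 h (adjusted p = 0.0176).

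**Figure D3:**
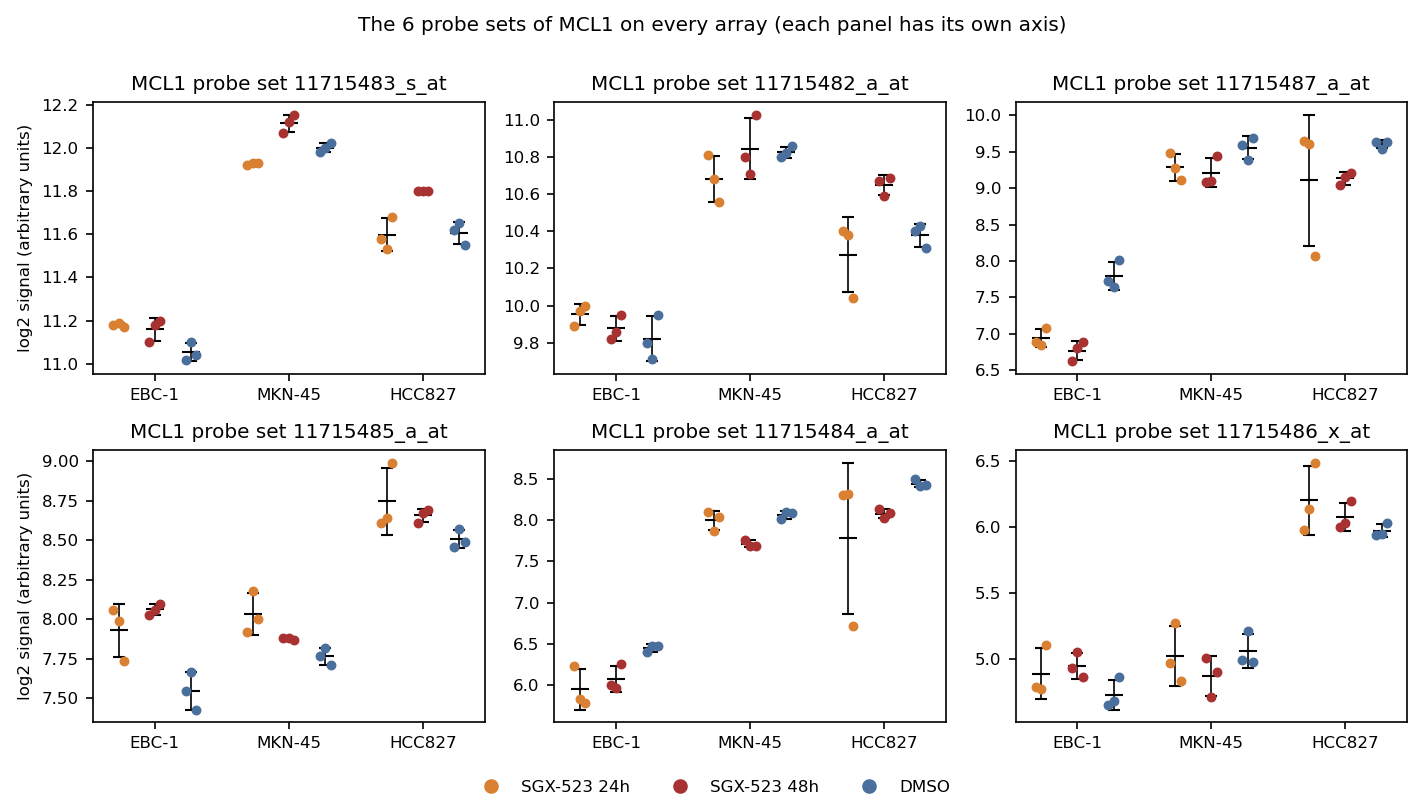
Level of the 6 MCL1 probe sets on every array as log2 signal, each panel on its own axis, with points for arrays and mean and SD bars; groups run SGX-523 24 h, SGX-523 48 h, DMSO within each line. Probe set 11715487_a_at falls below DMSO in EBC-1 where 11715483_s_at and 11715485_a_at rise, and 1 HCC827 array at 24 h lies far below its group for 11715487_a_at and 11715484_a_at.

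The change of each other MCL1 probe set minus that of the brightest was compared in 5 probe sets and 6 comparisons, 30 in all. The treated and DMSO arrays did not overlap in 13 of the 30. Over 14973 such differences of all genes, the groups did not overlap in 45% and 48.2% in EBC-1, 40.5% and 46.2% in MKN-45 and 17.4% and 28% in HCC827, at 24 h and 48 h. The exact permutation test reached its smallest p for 3 against 3 arrays, 0.1, in those 13 (0.231 after adjustment over the 30). A limma fit over all 14973 differences, added after the data were seen, called 5 of the 30, and 11 of the 30 without the array that stood apart. The 5 were 11715487_a_at in EBC-1 (-0.97 and -1.13, adjusted p = 0.00966 and 0.00264) and 11715485_a_at in EBC-1 (0.26 and 0.41, adjusted p = 0.0458 and 0.00144) and in MKN-45 at 24 h (0.35, adjusted p = 0.00919). Differences at least as large as that of 11715487_a_at made up 5.6% of all in EBC-1 at 24 h and 4.7% at 48 h. Probe sets 11715482_a_at and 11715486_x_at were called apart from the brightest in no comparison. Their differences ran from -0.10 to 0.07 (limma adjusted p of at least 0.58) and from -0.30 to 0.24 (at least 0.106).

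Counted over all 8 genes, 14 kept probe sets stand beside a brightest one. The limma fit called 6 of these 14 differences in EBC-1 at 24 h, where 24.6% of all genes' differences were called, and 6 at 48 h (29.2%). It called 4 in MKN-45 at 24 h (19.4%), 3 at 48 h (27%) and 0 in HCC827 at either time (0% and 2.59%). Several of the 14 share the same brightest probe set and are not independent, and a gap between these shares and those of all genes was not tested. Without the array that stood apart the counts were 7, 7, 4, 5, 0 and 2, in the same order, where 32.3%, 38.3%, 27.7%, 37.3%, 0% and 6.38% of all differences were called. Where on a transcript each probe set lies was not analysed here, and its part in these differences was not tested.

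BCL2 itself, the founding survival gene, was at the edge of detection. Its brightest probe set reached the array median on 17 of 27 arrays, and its means were 5.24 and 5.22 in EBC-1 at 24 h and 48 h of SGX-523, against 5.12 in DMSO. MKN-45 had 5.05 and 4.95, against 4.98 in DMSO, and HCC827 had 6.13 and 6.03, against 5.88 in DMSO. Its changes ran from -0.03 to 0.26 and were called in no comparison, and 4 of its 6 probe sets lay below the median of every array.

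BCL2A1, an NF-kB-driven survival gene best known in blood cells, was bright in HCC827 alone. Its level there was 8.19, 8.43 and 7.19 at 24 h and 8.23, 8.19 and 7.94 at 48 h of SGX-523, against 8.19, 8.12 and 8.05 in DMSO. The 7.19 is from the array that stood apart, and the groups overlapped. Means in the other lines lay between 2.71 and 2.84. The 9 arrays on which it reached the array median are those of HCC827, so it passed the filter through that line only. It was called in no comparison, with changes of -0.19 and 0.00 in HCC827, and the 24 h change was 0.19 without that array (adjusted p = 0.949).

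Counted over the 8 genes, 4 were called in EBC-1 at 24 h, 2 higher and 2 lower, where 59.2% of all 12386 genes were called (31.2% higher and 28.1% lower). In EBC-1 at 48 h it was again 4, 2 higher and 2 lower (background 61.6%, 32.8% higher and 28.9% lower). MKN-45 had 2 at 24 h, 1 in each direction (60.3%, 33.4% higher and 26.9% lower), and 3 at 48 h, all higher (62.6%, 36.4% higher and 26.2% lower). HCC827 had 0 at 24 h (0.0323%), with 0 at an unadjusted p under 0.05, and 3 at 48 h, 2 higher and 1 lower (22.2%, 11.6% higher and 10.7% lower). With only 8 genes, a gap between these shares and those of all genes was not tested. None of the 8 changed by 2-fold or more by its brightest probe set. No all-gene share is given at that size or at the unadjusted p, so these counts have no background to be read against. The median change of the 8 was 0.01 and 0.10 in EBC-1, -0.05 and 0.03 in MKN-45 and -0.02 and 0.07 in HCC827, against 0.04, 0.07, 0.05, 0.06, -0.01 and 0.01 over all genes.

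Of the 22 kept probe sets, 10 were called in EBC-1 at 24 h and 10 at 48 h, 3 higher and 7 lower each time, where 56.7% and 58.9% of 27359 probe sets were called. The background was 28.7% higher and 28% lower at 24 h, and 29.4% higher and 29.5% lower at 48 h. MKN-45 had 5 and 7 (55.6% and 58.3%), and HCC827 had 0 and 3 (0.00366% and 17%). Without the array that stood apart these counts were 13 and 13 in EBC-1 (66.2% and 68.3%), 8 and 10 in MKN-45 (65.8% and 67.9%) and 0 and 7 in HCC827 (0.0475% and 33.6%). Counts of the 8 genes were then 5 and 5 in EBC-1 (67.6% and 70.1%), 3 and 3 in MKN-45 (68.4% and 70.6%) and 0 and 3 in HCC827 (0.161% and 37.5%).

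**Figure D4:**
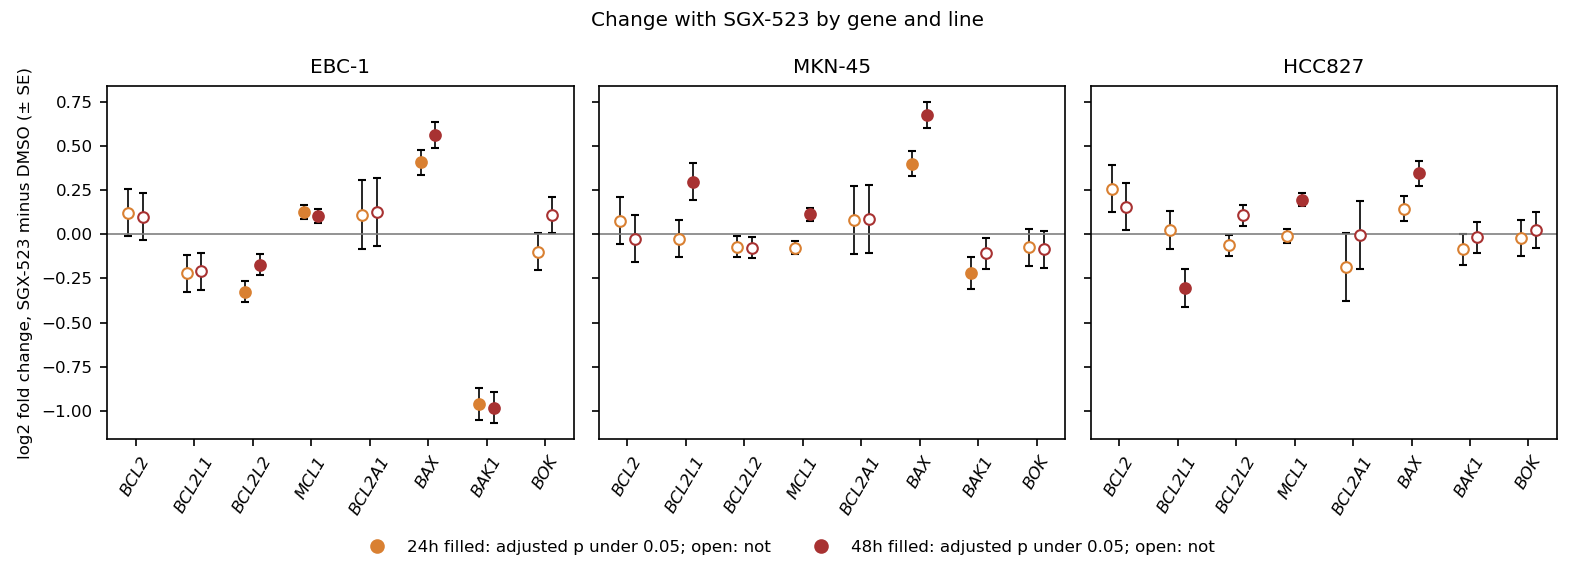
Log2 fold change of each gene by its brightest probe set, SGX-523 minus DMSO, with SE bars, in panels by line. Filled points passed adjusted p under 0.05 and open points did not. BAK1 in EBC-1 is near -0.96 to -0.98, BAX is positive in all panels, and no gene is called in HCC827 at 24 h.

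Differences between the lines in response were tested directly. The BAK1 response in EBC-1 minus that in MKN-45 was -0.74 at 24 h (SE 0.125, adjusted p = 3.02e-05), while at 48 h it was -0.87 (adjusted p = 2.43e-06). Against HCC827 the EBC-1 response of BAK1 differed by -0.87 and -0.97 (adjusted p = 2.08e-06 and 5.19e-07). The BCL2L2 response in EBC-1 differed by -0.26 from MKN-45 at 24 h (adjusted p = 0.0162) and by -0.26 and -0.28 from HCC827 (adjusted p = 0.0103 and 0.00725). In these results EBC-1 was the lower line each time. Between MKN-45 and HCC827 the BCL2L2 response at 48 h differed by -0.18 (adjusted p = 0.0703, and 0.0229 without the array that stood apart).

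The BAX response in MKN-45 exceeded that in HCC827 by 0.25 at 24 h (SE 0.102, adjusted p = 0.0396) and 0.33 at 48 h (adjusted p = 0.00847), and that in EBC-1 exceeded HCC827 by 0.26 at 24 h (adjusted p = 0.0346). At 48 h the EBC-1 difference of 0.22 missed the threshold (adjusted p = 0.0852). It passed in 3 of 22 alternatives: without the array that stood apart (adjusted p = 0.0316), with array weights (adjusted p = 0.0234) and without HCC827 DMSO replicate 3 (0.30, adjusted p = 0.0125). The 24 h differences kept their call in 7 of 21 alternatives each, with adjusted p from 0.00244 to 0.934 for EBC-1 and from 0.00356 to 0.289 for MKN-45. All of these rest on the brightest probe set. With the mean of both BAX probe sets, the 24 h differences were 0.01 for EBC-1 and 0.14 for MKN-45 (adjusted p = 0.934 and 0.269). The 48 h difference of MKN-45 from HCC827 was then 0.18 (adjusted p = 0.158). Between EBC-1 and MKN-45, the BAX response differed by 0.01 and -0.12 (SE 0.102) and no difference was called.

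By its brightest probe set, the BCL2L1 response at 48 h differed by -0.51 between EBC-1 and MKN-45 (adjusted p = 0.00647) and by 0.60 between MKN-45 and HCC827 (adjusted p = 0.0015). MCL1 differed by 0.20 between EBC-1 and MKN-45 at 24 h (adjusted p = 0.00388) and by 0.14 between EBC-1 and HCC827 at 24 h (adjusted p = 0.0371). In all, 3 and 2 of the 8 genes differed in response between EBC-1 and MKN-45 at 24 h and 48 h (42.1% and 49% of all genes). Between EBC-1 and HCC827 it was 4 and 2 (51.6% and 48.7%), and between MKN-45 and HCC827 1 and 2 (52.7% and 51.1%).

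Of the 8 genes, 3 were higher at 48 h than at 24 h in MKN-45 (background 24.3%, 14.9% higher): 0.28 for BAX, 0.32 for BCL2L1 and 0.19 for MCL1, with adjusted p = 0.00606, 0.0271 and 0.000669. The BCL2L1 difference was 0.18 without SGX-523 24 h replicate 1 (adjusted p = 0.231). Its call was also lost without SGX-523 48 h replicate 1 (adjusted p = 0.0824) or replicate 3 (adjusted p = 0.0967) and after quantile normalization (adjusted p = 0.104). EBC-1 had 0 called at 48 h against 24 h (11.1%) and 2 at an unadjusted p under 0.05, for which no all-gene share is given. These were BCL2L2 and BAX at 0.15 each, of which BCL2L2 was called without the array that stood apart (adjusted p = 0.023). HCC827 had 4 (26.5%). Of these, MCL1 (0.21) and BAX (0.20) were also called without the array that stood apart (0.25 and 0.26, adjusted p = 2.37e-06 and 0.00386), while BCL2L1 (-0.33) and BCL2L2 (0.17) were not (-0.20 and 0.12, adjusted p = 0.111 and 0.106). The BAX call was kept in 6 of 16 alternatives (adjusted p from 0.00365 to 0.285). It was lost without SGX-523 24 h replicate 1 or 2 or SGX-523 48 h replicate 1 or 2 of HCC827 (adjusted p from 0.0962 to 0.168).

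Without drug the MET-dependent lines differed in 5 of the 8 genes (background 67.6%). BAK1 was higher in EBC-1 than in MKN-45 by 1.36, with DMSO means of 7.86 ± 0.127 in EBC-1 and 6.50 ± 0.159 in MKN-45 (SD, n = 3 each, adjusted p = 7.11e-13). BAX differed by -0.97, MCL1 by -0.95, BCL2L1 by -0.93 and BCL2L2 by -0.35, all lower in EBC-1 (adjusted p of at most 1.1e-05). HCC827 in DMSO had means of 6.75 for BAK1, 8.57 for BAX, 11.61 for MCL1, 8.80 for BCL2L1 and 9.61 for BCL2L2, on arrays with a higher median. Within EBC-1 the fall of BAK1 brought its level to 6.90 ± 0.048 at 24 h (SD, n = 3), above the 6.50 of MKN-45 in DMSO.

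The partners of these proteins were read from lists chosen with earlier results of these data known. Their counts stand beside all-gene shares of 59.2% and 61.6% called in EBC-1, 60.3% and 62.6% in MKN-45 and 0.0323% and 22.2% in HCC827, at 24 h and 48 h. The BH3-only genes, which start the pathway, had 7 of 8 members tested. In EBC-1, 4 rose and 2 fell at 24 h and 5 rose and 2 fell at 48 h. In MKN-45 it was 4 up and 3 down, then 4 up and 2 down. In HCC827, 0 were called at 24 h, and 4 rose and 1 fell at 48 h. BCL2L11 (BIM) changed by 1.33 and 1.36 in EBC-1, 1.45 and 1.59 in MKN-45, and 0.04 and 0.23 in HCC827 (the last with adjusted p = 0.036), and BBC3 (PUMA) by 1.54, 1.69, 1.69, 1.35, 0.13 and 0.57 in the same order. BMF, which links the cytoskeleton to BCL2 proteins, rose by 1.39 and 1.41 in EBC-1, by 3.22 and 3.45 in MKN-45 and by 0.84 in HCC827 at 48 h. PMAIP1 (NOXA), the MCL1 antagonist, changed by -1.89 and -2.21 in EBC-1 and by -0.84 in MKN-45 at 24 h, each called, and by -0.36 in MKN-45 at 48 h, not called (adjusted p = 0.106).

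The other BCL2 homologues had 4 of 5 members tested. BCL2L12, whose protein interferes with caspases, changed by -2.17 and -2.32 in EBC-1 and by -0.97 and -0.76 in MKN-45, each called. BCL2L13, a mitochondrial membrane relative, rose by 0.59 and 0.57 in EBC-1 and by 0.48 and 0.37 in MKN-45. BCL2L14 rose by 1.46 and 1.54 in EBC-1 and by 0.66 at 24 h in MKN-45, and changed by -0.41 there at 48 h. In HCC827 1 of these genes was called, BCL2L14 at 48 h (0.60).

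Downstream of the pore, 6 of 9 apoptosome and caspase genes were tested. CYCS, which encodes cytochrome c, fell in both MET-dependent lines, by 0.93 and 0.90 in EBC-1 and by 1.03 and 0.52 in MKN-45. It was also called lower in HCC827 at 48 h (-0.31, adjusted p = 0.00854). CASP6, an executioner caspase, rose by 0.74 and 0.93 in EBC-1 and by 1.16 and 1.26 in MKN-45. The list as a whole was split: 2 rose and 2 fell in EBC-1 at 24 h, with a median of -0.02 against 0.04 over all genes. In the IAP list (5 of 6 tested), BIRC5, survivin, which is made mainly by dividing cells, changed by -3.24 and -5.25 in EBC-1 and by -3.11 and -4.66 in MKN-45, against 0.12 and -0.15 in HCC827. BIRC2 rose by 0.49 and 0.42 in EBC-1 and by 0.27 and 0.41 in MKN-45.

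Of 7 tested genes that set MCL1 protein turnover, 5 rose and 2 fell in MKN-45 at both times, while 2 rose and 1 fell in EBC-1 at both times. HCC827 had 0 called at 24 h, and 2 rose there at 48 h. USP9X, a deubiquitinase that stabilises MCL1, rose by 0.61 and 0.67 in EBC-1 and by 0.44 and 0.37 in MKN-45. It also rose in HCC827 at 48 h, by 0.19 (adjusted p = 0.00211). GSK3B, a kinase that marks MCL1 for degradation, rose by 0.70 and 0.99 in MKN-45 and changed by 0.04 and 0.16 in EBC-1 without a call. The ERK phosphatase DUSP6 changed by -4.07 and -4.51 in EBC-1 and by -6.26 and -5.27 in MKN-45, against -0.47 and 0.30 in HCC827, neither of them called. Among 7 membrane partners of the BCL2 family, all tested, 7 fell in MKN-45 at both times. In EBC-1, 4 fell and 2 rose at 24 h, and 4 fell and 3 rose at 48 h. HCC827 had 0 called at 24 h, and 2 fell and 1 rose at 48 h. VDAC2, a channel that recruits BAK1 to the mitochondrial membrane, changed by -0.39 and -0.51 in EBC-1 and by -0.21 and -0.44 in MKN-45. BNIP3L rose by 1.05 and 1.13 in EBC-1 and fell by 0.93 and 0.51 in MKN-45. It rose by 0.29 in HCC827 at 48 h (adjusted p = 0.00204).

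MET, the drug target, was itself lower on the treated arrays of the dependent lines, with changes of -0.48 and -0.63 in EBC-1 (adjusted p = 0.00552 and 4e-04) and -0.49 and -0.52 in MKN-45 (adjusted p = 0.00437 and 0.00257). In HCC827 it changed by -0.19 and 0.02, not called. SGX-523 inhibits the kinase, so the level of the MET transcript does not check the labels. Why it was lower was not tested.

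For each called gene, the 2 genes with the most similar profile were found by Pearson's r over the 27 arrays after the mean of each line was subtracted, a description of arrays that share treatment groups. BAX was most similar to ACVR1B (0.955) and FTO (0.947), and BAK1 to SCFD2 (0.95) and DMAC1 (0.944). BCL2L1 was most similar to RANBP3 (0.844) and PARP12 (0.826), which were 0.797 and 0.774 over 26 arrays without the one that stood apart. BCL2L2 was most similar to FKBP14 (0.831) and TYW5 (0.818), and MCL1 to SLC25A37 (0.831) and ITM2C (0.827).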

How the data were processed

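Expression was read from the deposited table of log2 signals, 1 column for each of 27 one-colour Affymetrix arrays, hybridised with biotin-labelled cRNA from a 3 prime kit per the labels' protocols. The submitters' processing notes name MAS5 without saying what it was used for; background correction, scaling, summary and annotation build are not given in the sources used here. HCC827 arrays have other medians and may have been scaled separately. Probe sets were named through the platform annotation: 44988 had 1 symbol, 1832 several and 2473 none, beside 102 control probe sets. Those with several were not used.

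limma 3.58.1 in R 4.3.3 fitted the 9 group means (18 residual degrees of freedom, intensity trend) over 12386 genes, and separately over 27359 probe sets, with Benjamini-Hochberg adjustment. All 8 genes, up to 4 genes of each pathway list with the smallest adjusted p, the 2 most similar genes of each called gene, and MET are named. Members and lists were chosen with earlier results of these data known. The labels call replicates biological; nothing says that they came from separate days. On data simulated after EBC-1 at 24 h, the fit recovered 42% of 1.25-fold and 98% of 2-fold changes, with 0.641% of calls false. After HCC827 at 24 h it recovered 38% and 92%, with 4.94% of calls false. Only 50 of 12386 genes were changed at each size, against 59.2% called in EBC-1 at 24 h, so these rates may not carry over. Alternatives covered scaling, offset, filter, trend, probe set choice, array weights, separate fits, a replicate block and each array left out. Same-numbered arrays had correlated deviations over 0.1 in 4 of 27 pairs, and the block is an alternative. Differently numbered arrays were not compared, so these correlations cannot exclude that same-numbered cultures were handled together. The number of arrays limits the precision.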

Additional observations from a re-analysis of the deposited data

Results flagged for a closer look

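The results here are those in which the change with SGX-523 differed between 2 lines by a test of the difference itself, each in log2 units as the first line minus the second.

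BAK1 differed between EBC-1 and MKN-45 by -0.74 at 24 h and -0.87 at 48 h, and between EBC-1 and HCC827 by -0.87 at 24 h and -0.97 at 48 h. All 4 were called under each of the 21 or 22 alternatives run. Probe set 11748849_a_at of BAK1 did not share the fall in EBC-1. Its change minus that of the brightest was 0.73 and 0.79 in EBC-1 and 0.17 and -0.17 in MKN-45, at 24 h and 48 h. BCL2L2 differed by -0.26 between EBC-1 and MKN-45 at 24 h, and by -0.26 at 24 h and -0.28 at 48 h between EBC-1 and HCC827, again called under each alternative run. The difference from MKN-45 came closest to the threshold, with adjusted p up to 0.0499. BCL2L2 has 1 kept probe set, so for this gene the mean of all kept probe sets is the same values. Its probe sets under the filter, below the median of every array, did not share the direction of the 24 h difference from MKN-45. At 24 h 11751290_a_at changed by 0.15 in EBC-1 and -0.24 in MKN-45, and 11717172_a_at by 0.06 and -0.29, none called.

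BCL2L1 differed by -0.51 between EBC-1 and MKN-45 at 48 h and by 0.60 between MKN-45 and HCC827 at 48 h. The first lost its call under 1 of 22 alternatives and the second under none, with 0.32 as its lowest value. Both are by the brightest probe set, and 11759514_at of this gene moved otherwise. Its 48 h change minus that of the brightest was -0.85 in EBC-1, -0.71 in MKN-45 and 0.20 in HCC827 (limma adjusted p = 4.3e-05, 0.000394 and 0.651).

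BAX differed by 0.26 between EBC-1 and HCC827 at 24 h, and between MKN-45 and HCC827 by 0.25 at 24 h and 0.33 at 48 h. The 24 h results kept their call in 7 of 21 alternatives each and the 48 h result in 20 of 22. With the mean of both BAX probe sets they were 0.01, 0.14 and 0.18, none called (adjusted p = 0.934, 0.269 and 0.158). MCL1 differed by 0.20 between EBC-1 and MKN-45 at 24 h, called in 20 of 22 alternatives, and by 0.14 between EBC-1 and HCC827 at 24 h, called in 7 of 21.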

How the results depend on the processing

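Over single genes, 2344 values were recomputed: 2049 kept direction and side of the threshold, 111 lost a call, 36 gained one, 142 changed sign but were called neither way, and 6 called values reversed. Without the array of HCC827 at 24 h, replicate 3, for example, the HCC827 24 h change of BCL2L1 turned to -0.11 (0.02 with it) and that of BCL2A1 to 0.19 (-0.19 with it). The 6 are MCL1 with the mean of all its probe sets: -0.092 and -0.0843 in EBC-1 at 24 h and 48 h, -0.106 in MKN-45 and -0.0184 in HCC827 at 48 h, -0.0532 for MKN-45 at 48 h against 24 h, and -0.0393 for EBC-1 minus MKN-45 at 24 h; its probe sets change in different directions. The counts below are of genes called out of 8, without the share of all genes called in the same setting. The cause of their moves was not tested unless fewer probe sets were tested. For MKN-45 at 24 h, 1 was called with the offset of 64, with no filter, with the replicate block and with the mean of all probe sets. For HCC827 at 48 h it was 1 with a separate fit per line, which lost BAX and BCL2L1. For EBC-1 at 48 h against 24 h it was 1 with quantile normalization, array weights and a separate fit. For MKN-45 at 48 h against 24 h it was 0 with the mean of probe sets. For HCC827 at 48 h against 24 h it was 2 with quantile normalization, median centring, no filter and array weights, and 1 with the mean of probe sets and a separate fit. For EBC-1 minus HCC827 at 24 h it was 2 with quantile normalization, median centring, no filter and the replicate block. For MKN-45 minus HCC827 it was 0 at 24 h with quantile normalization, no filter and the replicate block, and at 48 h 1 with the mean of probe sets and 4 with array weights. For EBC-1 minus MKN-45 at 48 h it was 1 with quantile normalization. Of probe sets called, the 75th percentile filter, which tested 10 in place of 22, left 6 and 6 in EBC-1 and 3 and 3 in MKN-45; array weights gave 8 in MKN-45 at 24 h and 9 in HCC827 at 48 h, and separate fits gave 0 in HCC827 at 48 h. The limma fit on MCL1 probe set differences called 5 of 30, and 11 without the HCC827 array at 24 h, replicate 3. The array weights fit stopped before its convergence tolerance was met. The replicate block changed no other count by over 1.5 times. Same-numbered arrays had correlations of deviations from -0.226 to 0.187, which do not decide whether they were paired.

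With each array left out in turn, genes called ranged over 4 to 5 in EBC-1 at 24 h, 3 to 5 at 48 h, 1 to 3 in MKN-45 at both times, 0 to 0 in HCC827 at 24 h and 2 to 3 at 48 h. The share of all genes called can move too. In HCC827 at 48 h it was 22.2% with all arrays and 37.5% without HCC827 at 24 h, replicate 3. Shares without each other array are not given, so moves of these counts are not set against all genes. At 48 h against 24 h they were 0 to 1 in EBC-1, 2 to 3 in MKN-45 and 1 to 3 in HCC827. Between lines they were 3 to 3 and 2 to 2 (EBC-1 minus MKN-45), 2 to 4 and 2 to 3 (EBC-1 minus HCC827), 0 to 1 and 2 to 3 (MKN-45 minus HCC827), and 5 to 5 for the DMSO groups. Probe sets called were 10 to 13 and 8 to 13 in EBC-1, 3 to 8 and 3 to 10 in MKN-45, and 0 to 5 and 2 to 7 in HCC827. MCL1 differences without overlap were 13 to 15. Without the array of HCC827 at 24 h, replicate 3, the probe sets called were 8 in MKN-45 at 24 h and 7 in HCC827 at 48 h. In MKN-45 at 24 h, genes called dropped to 1 without DMSO replicate 1 or SGX-523 24 h replicate 1 or 2, and at 48 h to 1 without SGX-523 48 h replicate 3. Probe sets there were 3 without SGX-523 24 h replicate 1 or 2 at 24 h, and at 48 h 3 without DMSO replicate 1 or SGX-523 48 h replicate 1 or 3, and 4 without DMSO replicate 2. At 48 h against 24 h, EBC-1 had 1 without its SGX-523 48 h replicate 1 or the HCC827 array at 24 h, replicate 3. HCC827 had 1 without SGX-523 48 h replicate 1 and 2 without its replicate 2 or 3 or SGX-523 24 h replicate 3. The 5 probe sets in HCC827 at 24 h came without replicate 1 of SGX-523 and 3 without replicate 2. EBC-1 minus HCC827 at 24 h dropped to 2 without EBC-1 DMSO replicate 1 and without each of SGX-523 24 h replicates 1 and 2 of EBC-1, and DMSO and SGX-523 24 h replicates 1 and 2 of HCC827. MKN-45 minus HCC827 at 24 h dropped to 0 without each DMSO replicate or SGX-523 24 h replicate 2 or 3 of MKN-45, and without DMSO or SGX-523 24 h replicate 1 or 2 of HCC827.

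Limits: 3 arrays a group, array values whose normalization is not known, DMSO arrays shared by both times, and no probe positions. Signal near the array median limits what can be read of BCL2. Outside HCC827 the signal of BCL2A1 lay far below the array median, and a change could not be read there. Transcript levels say nothing of MCL1 protein.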

Other observations

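The 8 probe sets under the filter lay below the median of every array, and 1 of them still changed. Probe set 11717172_a_at of BCL2L2, the BCL-W gene, had 4.27, 3.93 and 3.97 in MKN-45 at 48 h of SGX-523, against 4.77, 4.47 and 4.54 in DMSO, a change of -0.54 (limma over all 44988 single-gene probe sets without a filter, adjusted p = 0.00115). At 24 h it averaged 4.31 and changed by -0.29 (adjusted p = 0.0866). The brightest probe set of BCL2L2 changed there by -0.08 at 48 h and was not called.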
